A study of Mus musculus with 24 samples.

Results

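The comparison described here is that of OGT knockout (KO) with wild-type (WT) bone marrow-derived macrophages at rest, that is, without any stimulus (M0). Its members are the 8 unstimulated libraries of a series of 24, chosen by their labels: 4 WT libraries, numbered 1 to 4, and 4 KO libraries, numbered 5 to 8. All come from C57BL/6J mice of 12 weeks, and total RNA was sequenced. The other 16 libraries hold the same genotypes after 12 hours of LPS at 100 ng/ml or of IL-4 at 10 ng/ml, in groups of 4. The labels used here give the genotype only as WT or KO: they do not name a Cre driver, the deleted exons or the number of animals behind a library, so a p-value here speaks of spread among these libraries alone, which may be technical.

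OGT is the only enzyme that attaches O-linked N-acetylglucosamine (O-GlcNAc) to serines and threonines of nuclear, cytosolic and mitochondrial proteins, and OGA, the product of Mgea5, removes it. The donor sugar, UDP-GlcNAc, is made by the hexosamine pathway from glucose, glutamine, acetyl-CoA and uridine. Among the known substrates are transcription factors, subunits of NF-kB, chromatin regulators such as HCFC1, and components of signalling cascades, so that the mark is studied as a link between nutrients and gene activity. Bone marrow-derived macrophages are grown from marrow precursors in the presence of the growth factor M-CSF.

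Read counts over genes ranged from 63429271 to 90900801 per library, and 16222 to 16517 genes had a count. A count of 0 allowed up to 3 counts, or 0.0330 to 0.0473 counts per 1000000 (CPM), which covers counting error only. The 4 KO libraries fell into pairs. The standard deviation of log2 CPM differences over genes was 0.31 between KO 5 and 6 and 0.32 between KO 7 and 8, but 0.46 for each of the 4 combinations across these pairs. Within WT it was 0.34 to 0.38, and between genotypes 0.44 to 0.56. The first principal component (43.9% of variance) separated the genotypes and also set KO 7 and 8 farther from WT than KO 5 and 6. The second (19.4%) separated the KO pairs. The labels do not say what the numbers mark, and values by KO pair are given beside many of the results below.

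**Figure D1:**
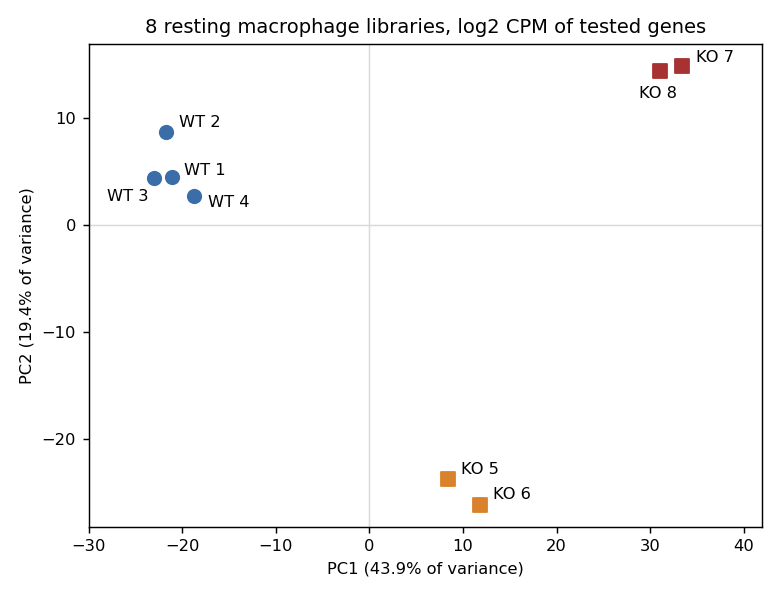
Principal components of log2 CPM over the tested genes for the 8 resting libraries; each point is 1 library, circles are WT and squares are KO (orange 5 and 6, red 7 and 8). The WT libraries lie between -23.0 and -18.8 on the first component, KO 5 and 6 at 8.39 and 11.8, and KO 7 and 8 at 33.4 and 31.1, while the second component holds KO 5 and 6 at -23.7 and -26.1 and KO 7 and 8 at 14.9 and 14.5.

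The macrophage label was checked against 15 marker genes. Csf1r, the M-CSF receptor gene, stood at 1624, 1526, 1610.2 and 1553 CPM in WT 1 to 4 and at 1639, 1518, 1116 and 1097 CPM in KO 5 to 8. Adgre1 (F4/80) stood at 669.9 to 758 CPM in WT and 486 to 674 CPM in KO, and Cd68 at 640.4 to 671 and 669.6 to 772 CPM. Macrophage transcripts were thus abundant in every library, with Csf1r and Adgre1 lower in KO 7 and 8. Transcripts known from other cells were present beside them, and their cell source was not measured. The 30 stromal and extracellular matrix genes, among them Thbs1, which macrophages also express, summed to 32090 to 34550 CPM in WT and 37590 to 47250 CPM in KO. The 15 endothelial markers summed to 99.6 to 105 CPM in WT and 109.8 to 188 CPM in KO, and the higher values were those of KO 7 and 8, where the endothelial cadherin gene Cdh5 stood at 3.82, 5.49, 24.4 and 23.97 CPM in KO 5 to 8 against 4.13 to 5.26 CPM in WT. Neutrophil and precursor markers (34.5 to 48.1 CPM in WT, 28.5 to 44.03 in KO), T and NK markers (10.03 to 13.8 and 7.37 to 21.5) and mast cell and basophil markers (22.1 to 27.2 and 13.7 to 20.1) were low. Other sums were higher and rested mostly on 1 gene each: erythroid and megakaryocyte markers (625 to 732 CPM in WT, 452 to 626 in KO) on Pf4, a chemokine gene of platelets that macrophages also express, B and plasma cell markers (299 to 318 and 298 to 335) on Sdc1, and dendritic cell markers (164 to 208 and 134 to 150.3) on the interferon-stimulated gene Bst2. Of the T cell genes, Cd3e was at 0 in all libraries, as were the B cell factor gene Pax5 and the mast cell tryptase gene Tpsb2. Xist was present in all 8 libraries (73.4 to 95.2 CPM in WT, 71.1 to 88.5 CPM in KO), while the Y-linked genes Ddx3y, Eif2s3y, Kdm5d and Uty were at 0 in every KO library. Of the 6 sex-linked genes checked, the 5 beside Xist stayed under 1 CPM in every library, WT included, and 3 had no count in any. In bulk samples, fewer cells of a type and less RNA per cell cannot be told apart, and the part that stromal and endothelial transcripts play in the results below was not tested.

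Ogt mRNA was lower in every KO library. It stood at 52.5, 56.7, 52.3 and 58.1 CPM in WT 1 to 4 and at 38, 38.1, 40.4 and 39.1 CPM in KO 5 to 8, so KO retained 0.709 of the WT mean, and the groups did not overlap. The log2 fold change was -0.50 ± 0.051 (standard error, n = 4 against 4; edgeR quasi-likelihood test, Benjamini-Hochberg adjusted p = 0.00011). It was -0.53 with only KO 5 and 6 and -0.47 with only KO 7 and 8. Counts cover the whole gene (chrX:101640011-101684351 in GRCm38.p6), so transcripts that lack only a deleted part would still be counted. Mgea5, the OGA gene, fell as well, from 90.5, 89.7, 88.4 and 97.1 CPM to 66.8, 64.7, 67.9 and 62.95 CPM (-0.48 ± 0.048, adjusted p = 9.89e-05).

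Over all 14149 tested genes, 3415 (24.1%) passed an adjusted p of 0.05 and are termed called: 1612 were higher in KO (11.4%) and 1803 lower (12.7%). The changes were mostly small. The median absolute log2 fold change over tested genes was 0.148 and the median standard error 0.077, and at least 2-fold changes were seen for 206 of the higher and 57 of the lower genes. Of the 206, 137 had a WT mean under 1 CPM. For 3951 genes (27.9%) the 4 KO values lay beyond the 4 WT values. Fitted with only KO 5 and 6 or only KO 7 and 8 against the 4 WT libraries, 780 genes were called higher (5.51%) and 923 lower (6.52%) in both fits as well. When libraries were summed by number (1 and 2, 3 and 4, 5 and 6, 7 and 8), 253 genes (1.69% of those tested) stayed higher and 267 (1.79%) lower, which is what remains when these sums are taken as the samples. Only the KO libraries fell into clear pairs. In WT the standard deviation of log2 CPM differences was 0.379 for 1 and 2, 0.344 for 3 and 4 and 0.359 to 0.381 for the other combinations. The WT sums thus follow the numbering alone, and the fit sets 2 sums against 2. In that fit at most 7 members of any list below stayed higher (the amino acid response) and at most 3 lower. Protein-coding genes (24.8% of 13457 called) were called more often than long noncoding RNA genes (10.8% of 519), and by chromosome the called share ran from 19.7% on X to 27.4% on chromosome 7.

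Of the other genes around Ogt, 1 of the 5 tested on either side was called. Il2rg, which encodes the common gamma chain of the interleukin-2 receptor family, stood at 47.3, 39.1, 39.9 and 39.6 CPM in WT and 30.5, 28.3, 21.2 and 22 CPM in KO (-0.70 ± 0.11, adjusted p = 0.00164). O-GlcNAc cycling and hexosamine genes as a group were called at about the share of all genes: 2 of 19 rose and 2 fell, the latter being Ogt and Mgea5 themselves. Gnpda1, a glucosamine-6-phosphate deaminase gene that works against the pathway, rose (133, 131, 135 and 133 CPM in WT, 182, 169.8, 153 and 154 CPM in KO, 0.31 ± 0.059, adjusted p = 0.00402). Of 21 genes of OGT partner complexes, 2 rose and 2 fell. Hcfc1, which encodes the chromatin-associated host cell factor that OGT both glycosylates and cleaves, rose from 129.8, 112, 122 and 125 CPM to 171, 178, 176 and 168 CPM (0.51 ± 0.053, adjusted p = 0.000128). Sin3a and Hdac1, corepressor genes, were -0.23 and -0.15, and the NSL subunit gene Phf20 was 0.20; none of these 3 was called in both KO pairs alone.

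**Figure D2:**
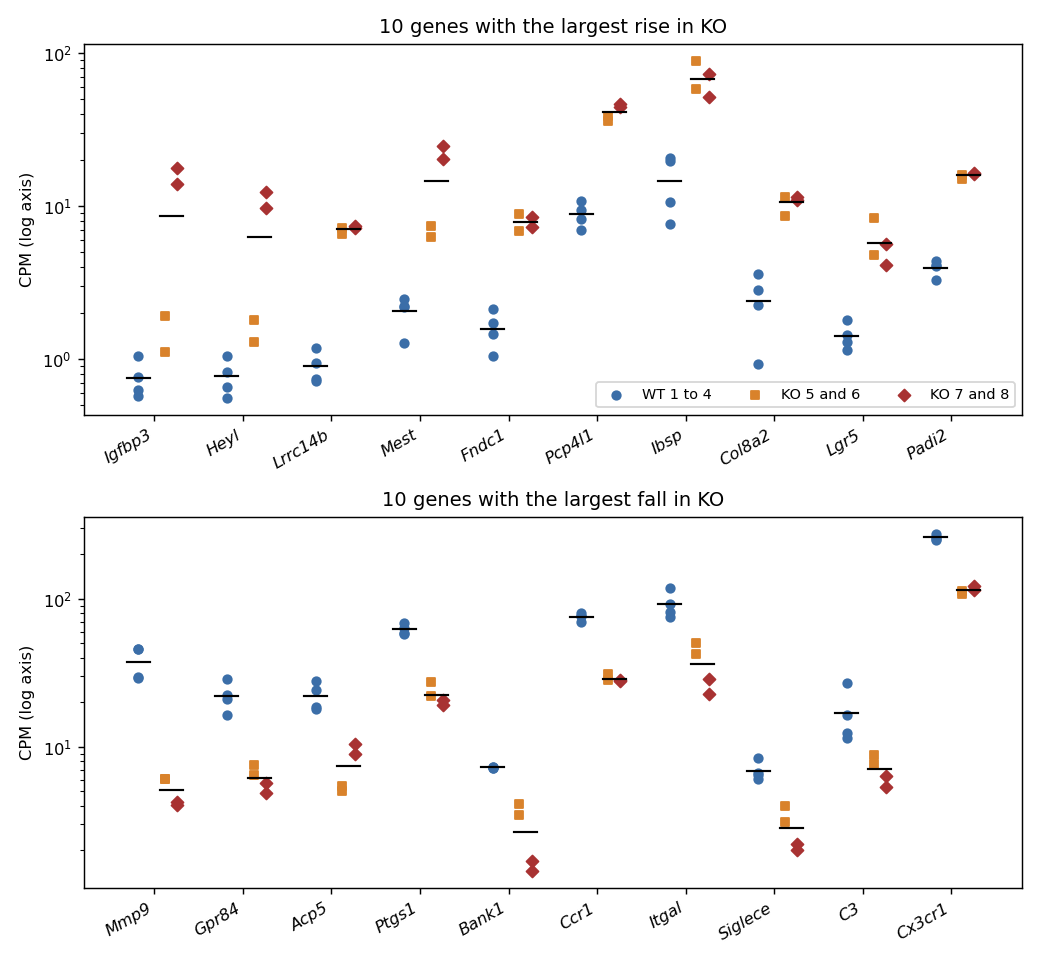
CPM on a log axis in each resting library for the 10 genes with the largest rise and the 10 with the largest fall in KO; blue circles are WT 1 to 4, orange squares KO 5 and 6, red diamonds KO 7 and 8, and black bars the genotype means (n = 4). KO pairs stand far apart for Igfbp3, Heyl and Mest and close together for Lrrc14b, Padi2, Ccr1 and Cx3cr1.

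The 10 genes with the largest rise were chosen among called genes with at least 5 CPM in KO, no overlap and a call in both KO pairs. Lrrc14b, a leucine-rich repeat gene (chr13:74359582-74364000), stood at 0.7201, 1.19, 0.944 and 0.741 CPM in WT and 7.25, 6.54, 7.202 and 7.39 CPM in KO, and its log2 fold change was 2.98 ± 0.15 (adjusted p = 8.99e-07). Padi2, which encodes an enzyme that converts arginine in proteins to citrulline, went from 3.31, 4.07, 4.39 and 4.101 CPM to 15.1, 15.9, 16.3 and 16.4 CPM (2.003 ± 0.09, adjusted p = 3.73e-07). Pcp4l1, a relative of the calmodulin regulator gene Pcp4, went from 7.001, 8.27, 10.8 and 9.38 CPM to 36, 39.1, 44.6 and 46.2 CPM (2.22 ± 0.12). In these 3 genes the 4 KO libraries were close to each other and far from WT, and the calls held with pairs summed (adjusted p = 0.0064, 0.00822 and 0.0226). Lgr5, a receptor gene for R-spondins known from stem cells, rose from 1.42 to 5.73 CPM on average (2.01 ± 0.22).

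Igfbp3, a secreted binder of insulin-like growth factors, behaved otherwise. It stood at 0.573, 1.06, 0.767 and 0.626 CPM in WT and at 1.11, 1.91, 17.7 and 13.9 CPM in KO 5 to 8. KO 5 and 6 lay only just above WT, at 1.01 on the log2 scale, while KO 7 and 8 were at 4.396. Heyl, an effector gene of Notch signalling, had the same order (1.302, 1.79, 12.4 and 9.78 CPM in KO 5 to 8 against 0.5601 to 1.05 CPM in WT), as had the imprinted gene Mest (6.25, 7.47, 24.6 and 20.3 CPM against 1.29 to 2.48 CPM). With pairs summed these 3 were no longer called (adjusted p = 0.126, 0.126 and 0.0624). The summed level of endothelial markers had the same order, at 112 CPM on average in KO 5 and 6 and 185 CPM in KO 7 and 8, as had that of stromal genes, at 38940 and 46480 CPM, and their part in these rises was not tested.

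The largest fall was that of Mmp9, which encodes a gelatinase that macrophages secrete. It stood at 45.8, 29.7, 45.8 and 29.4 CPM in WT and 6.08, 6.05, 4.26 and 4.04 CPM in KO (-2.87 ± 0.19, adjusted p = 6.4e-06). Ccr1, a receptor gene for inflammatory CC chemokines, went from 76.1, 79.9, 69.9 and 76.6 CPM to 30.9, 28.1, 28.1 and 28.2 CPM (-1.39 ± 0.056, adjusted p = 3.73e-07). Cx3cr1, the fractalkine receptor gene, went from 264, 256, 274 and 251 CPM to 113, 107, 123 and 115 CPM (-1.19 ± 0.054, adjusted p = 3.73e-07). For Ccr1 and Cx3cr1 the 4 KO libraries lay close together and far below WT. Ptgs1, the gene of the constitutive cyclooxygenase COX-1, fell from 68.3, 64.04, 57.97 and 58.4 CPM to 27.4, 21.9, 20.7 and 19.1 CPM (-1.48 ± 0.10). Gpr84, a receptor gene for medium-chain fatty acids, fell from 16.3 to 28.8 CPM to 4.92 to 7.55 CPM (-1.84 ± 0.17). For Itgal, the alpha chain gene of the integrin LFA-1, Bank1, a B cell scaffold gene, and Siglece, an inhibitory sialic acid receptor gene, KO 7 and 8 lay under KO 5 and 6: Itgal stood at 50.4, 42.5, 28.9 and 22.6 CPM in KO 5 to 8 against 75.9 to 118 CPM in WT. Their calls ended with pairs summed (adjusted p = 0.0708, 0.102 and 0.0577). Acp5, an acid phosphatase gene known from osteoclasts, had the opposite order, with 5.03, 5.403, 10.4 and 8.91 CPM in KO 5 to 8 against 17.97 to 27.9 CPM in WT (-1.59 ± 0.23, 0.0505 with pairs summed). C3, the central complement gene, fell by -1.25 ± 0.25 with the widest spread in WT (27.1, 11.5, 16.3 and 12.4 CPM).

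Lyz2 had the largest loss of CPM among the genes that met the same rule. Lyz2, the macrophage lysozyme gene (chr10:117277541-117282272), stood at 10931, 10510, 10377 and 9385 CPM in WT and 6205, 5619, 5152 and 5374 CPM in KO (-0.88 ± 0.07, adjusted p = 2.09e-05). Lyz1, its neighbour and close copy with which reads may be shared, stood at 755, 713, 749 and 611 CPM in WT and 419, 411, 352 and 387 CPM in KO (-0.85 ± 0.078). Of the 5 tested genes on either side of Lyz2, only Lyz1 and Yeats4, a chromatin reader gene (-0.27 ± 0.069, adjusted p = 0.0161), were called. Other large losses of CPM were those of Spp1, the osteopontin gene (3173 to 3587 CPM in WT, 1988 to 2439 in KO, -0.61 ± 0.069), Fcrls, an Fc receptor-like gene (1066 to 1182 and 637 to 705 CPM, -0.74 ± 0.055), F13a1, a coagulation factor subunit gene (1003, 957, 941 and 958 CPM in WT and 720.3, 670.2, 426 and 409.7 in KO, -0.79 ± 0.16), and Dab2, an endocytic adaptor gene (-0.59 ± 0.14). For F13a1 and Dab2 the calls ended with pairs summed (0.113 and 0.129).

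Over the 15 macrophage markers, 8 fell and 2 rose; 4 or 5 fell without WT 1, WT 3, KO 7 or KO 8. Beside Lyz2, Lyz1 and Cx3cr1, the integrin gene Itgam (-0.60 ± 0.093) and the haemoglobin scavenger receptor gene Cd163 (-0.71 ± 0.22) fell in both KO pairs. Adgre1, Cd14 and Aif1 fell in the fit of all libraries (-0.32, -0.23 and -0.38) but not in both pairs alone. Tyrobp, the gene of the DAP12 adaptor, rose (536 to 585 CPM in WT, 624 to 706 CPM in KO, 0.28 ± 0.055), as did Ctss (0.19 ± 0.057). Cd68, at 0.15 ± 0.057 (adjusted p = 0.0754), Mertk (0.048) and Csf1r (-0.23 ± 0.12, adjusted p = 0.17) did not pass. With only KO 7 and 8, Csf1r was at -0.51 (adjusted p = 3.68e-05), and with only KO 5 and 6 at 0.00085 (0.994).

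**Figure D3:**
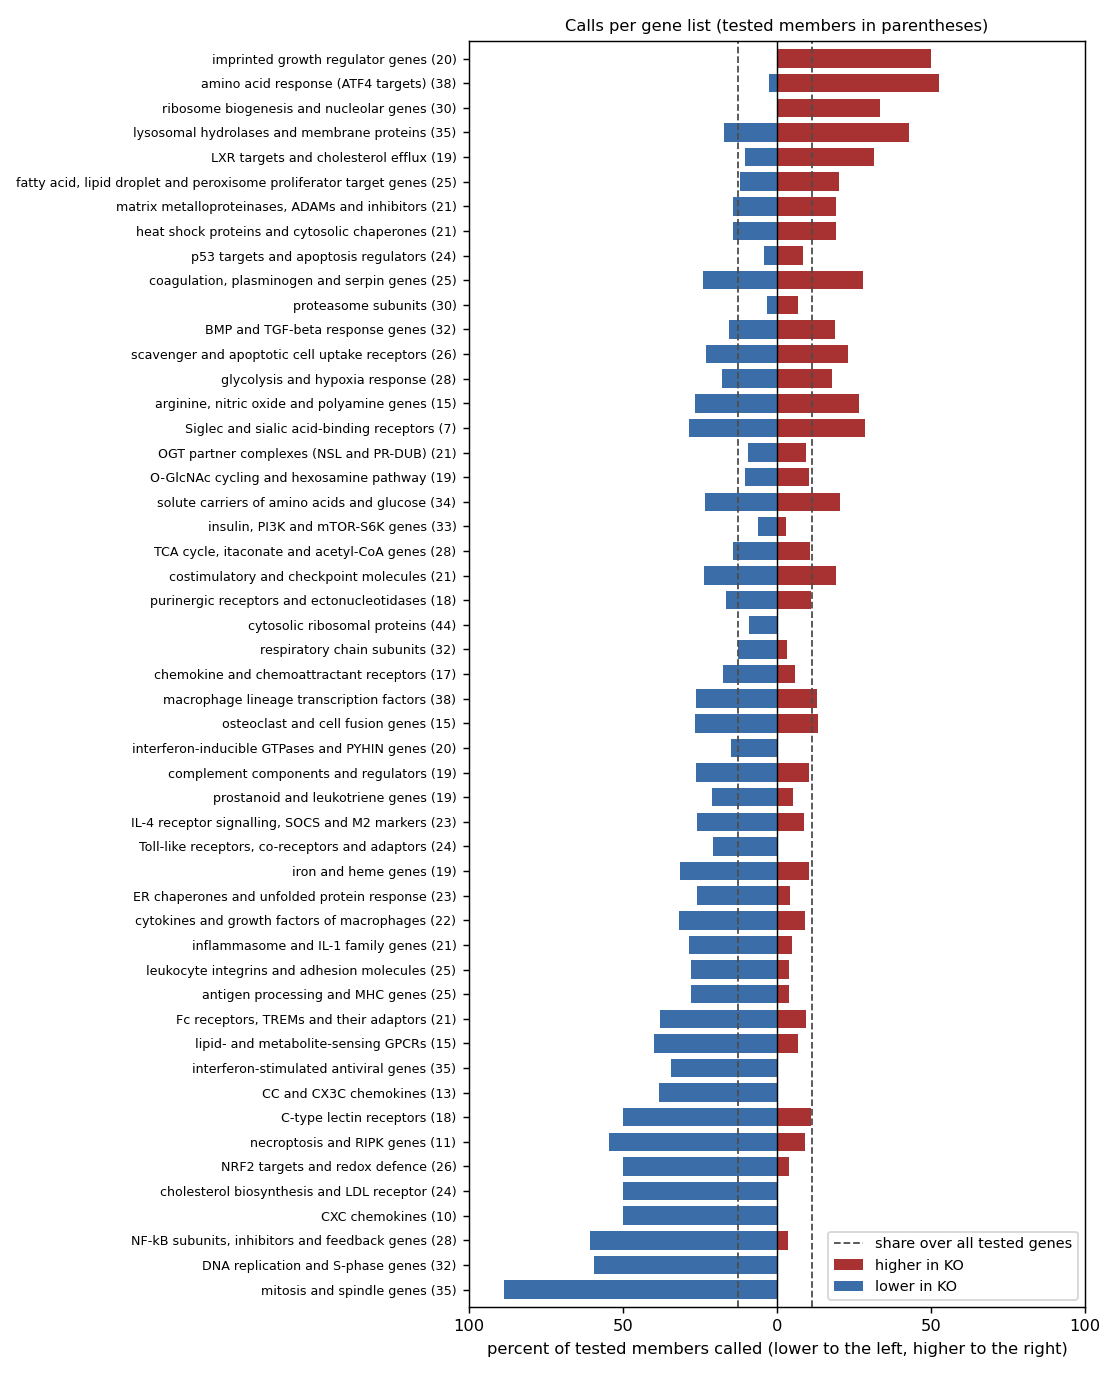
Percent of tested members called higher (red, to the right) or lower (blue, to the left) in KO for 51 gene lists, with the number tested in parentheses; dashed lines mark the shares over all tested genes, 11.4% higher and 12.7% lower. The mitosis, DNA replication and NF-kB lists reach farthest to the left and the amino acid response and imprinted gene lists farthest to the right.

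C-type lectin receptors, which recognise patterns on microbes, had more falls than rises. Of 18 tested, 9 fell and 2 rose (median log2 fold change -0.36 against 0.0041 over all tested genes), and 8 of the falls held in each KO pair alone and 5 without WT 1 and 2 or WT 3 and 4. With pairs summed 1 fall and 2 rises were left. Clec4n, which encodes Dectin-2, a receptor for fungal mannans, stood at 132, 113, 127 and 118 CPM in WT and 66.4, 65.5, 55.8 and 60.3 CPM in KO (-0.98 ± 0.068, adjusted p = 8.46e-06). Clec4a2, an inhibitory receptor gene of the same cluster, stood at 80.9, 82.4, 77.6 and 79.9 CPM in WT and 51.9, 45.1, 28.2 and 27.98 CPM in KO (-1.06 ± 0.17). Both genotypes were separated, and KO 7 and 8 held the lowest Clec4a2 values. Genes of the Clec4a family are close copies, and reads may be shared among them. The 2 members that rose were Clec11a, which encodes a secreted growth factor and no surface receptor (36.6, 42.4, 31.6 and 37.8 to 66.8, 80, 76.6 and 68.9 CPM, 0.98 ± 0.087), and Clec2i, which encodes a ligand of an NK cell receptor (1.24 to 2.18 to 4.997 to 6.78 CPM, 1.82 ± 0.19).

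Sialic acid receptors split. Siglece, above, and Mag (-1.17 ± 0.22) fell, while Siglec1, the sialoadhesin gene of tissue macrophages, rose (115, 72.7, 89.6 and 90.9 CPM in WT, 153, 166, 136 and 128 CPM in KO, 0.67 ± 0.12, adjusted p = 0.00302), as did Cd22 (15.9 to 18.1 to 26.1 to 31.6 CPM, 0.76 ± 0.068). All 4 calls held in each KO pair alone. Among 21 Fc receptor, TREM and adaptor genes 8 fell and 2 rose. The inhibitory receptor genes Fcgr2b (395, 365, 394 and 353 to 278, 257, 276 and 279 CPM, -0.47 ± 0.054) and Pilra (21.03 to 28.6 to 10.8 to 14.2 CPM, -0.98 ± 0.11) fell, and Treml2 rose (1.91 to 2.98 to 6.099 to 7.32 CPM, 1.48 ± 0.14). Pairs summed left Fcgr2b, Pilra and Fcrls lower and Treml2 higher.

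Receptors for debris and lipoproteins changed in both directions: 6 of 26 rose and 6 fell, counts that dropped to 3 higher without WT 3 and to 3 lower without WT 1, WT 3, WT 4, KO 7 or KO 8. Cd5l, the gene of a secreted scavenger protein of tissue macrophages (also named AIM), rose from 40.9, 44.7, 58.6 and 58.98 CPM to 158, 158, 166 and 163 CPM (1.66 ± 0.11, adjusted p = 5.42e-06), about 3.17 times the WT mean. The lipoprotein receptor genes Cd36 (359, 385, 389.7 and 433 to 299, 302, 213 and 232 CPM, -0.58 ± 0.11) and Msr1 (183 to 206 to 106 to 153 CPM, -0.61 ± 0.11) fell in both KO pairs. Colec12, another scavenger receptor gene, rose (0.36 ± 0.061).

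Of 25 leukocyte integrin and adhesion molecule genes, 7 fell, 17 were not called and 1, the selectin ligand gene Selplg, rose (0.23, not called in both pairs or with any 1 WT library left out). With only KO 7 and 8, 6 rose and 7 fell. Itgb2, the shared beta chain gene of LFA-1 and Mac-1, stood at 406, 363, 365 and 369 CPM in WT and 296, 297, 258 and 262 CPM in KO (-0.43 ± 0.063). Itgam, the Mac-1 alpha chain gene, stood at 437, 351, 378 and 358 and 285, 271, 233 and 219.8 CPM. The adhesion ligand gene Icam1 (56.2 to 69.96 to 37.9 to 44.4 CPM, -0.56 ± 0.079) and Itgb7 (-0.96 ± 0.13) fell with them. Of these, Icam1 alone was still called with pairs summed (adjusted p = 0.0432). Among 17 chemokine and chemoattractant receptor genes, 3 fell and 1 rose: Ccr1 and Cx3cr1 as above, C5ar1 (-0.30) and, upward, Cxcr4 (0.21), the last 2 not in both KO pairs. The called share of this list, 23.5%, was close to the 24.1% of all tested genes.

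NF-kB transcription factors are held in the cytosol by IkB proteins, and active NF-kB induces the genes of its own inhibitors and of several subunits. Of 28 genes of this group 17 fell and 1 rose, with a median of -0.27; 11 falls held in each KO pair alone, 3 with pairs summed and 8 without WT 1 and 2. Nfkbia, the IkB-alpha gene, stood at 42.5, 39.3, 33.6 and 36.4 CPM in WT and 25.95, 26.3, 21.96 and 23.9 CPM in KO (-0.63 ± 0.08, adjusted p = 0.000397). Relb, the partner of the non-canonical pathway, stood at 43.9, 40.4, 41.04 and 36.6 and 29.9, 29.6, 23.8 and 25.3 CPM (-0.58 ± 0.082), and Nfkb2, the gene of its p100 precursor partner, at 91.8, 84.6, 102 and 83.1 and 69.9, 73.9, 66.3 and 67.7 CPM (-0.38 ± 0.068). In all 3 the genotypes did not overlap. Otulin, a deubiquitinase gene, was the member that rose (0.17).

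Promoters of this list are shown for the called members with the smallest adjusted p that hold a kappaB motif, here 3 G, any 2 bases, 3 T and 2 C (either strand), in the 250 bases before the annotated start (RefSeq, GRCm38.p6). The window of Nfkbia is chr12:55492648-55492897 (minus strand), that of Nfkb2 chr19:46304487-46304736 and that of Cyld, a deubiquitinase gene that restrains NF-kB (-0.37), chr8:88696778-88697027 (both plus strand). Capitals mark the motif, read 5′ to 3′ on the strand of the gene.
Nfkbia: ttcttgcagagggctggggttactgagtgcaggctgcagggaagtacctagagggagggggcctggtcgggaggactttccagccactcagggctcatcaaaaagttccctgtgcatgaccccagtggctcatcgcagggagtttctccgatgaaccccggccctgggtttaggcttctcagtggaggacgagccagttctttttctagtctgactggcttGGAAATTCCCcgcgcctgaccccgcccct
Nfkb2: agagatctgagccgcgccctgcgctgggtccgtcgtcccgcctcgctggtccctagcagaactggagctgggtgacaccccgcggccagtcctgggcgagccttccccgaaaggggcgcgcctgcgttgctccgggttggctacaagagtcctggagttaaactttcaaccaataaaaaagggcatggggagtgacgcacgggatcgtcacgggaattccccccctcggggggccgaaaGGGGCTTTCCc
Cyld: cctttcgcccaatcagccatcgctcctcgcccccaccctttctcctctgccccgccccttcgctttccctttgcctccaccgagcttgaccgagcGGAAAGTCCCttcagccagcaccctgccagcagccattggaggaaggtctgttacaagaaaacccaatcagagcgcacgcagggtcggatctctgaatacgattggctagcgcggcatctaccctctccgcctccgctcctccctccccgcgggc
The motif was in 6 of the 23 list members with a window (26.1%), in 1.41% of all 32851 windows and in 1.5% of the windows of tested genes. A member with several windows counted if any of them held the motif, so the share of members and the shares of windows are unlike measures. It was in 3 of 15 called members and in 3 of 8 not called. A match is a description of the letters, and these data hold no measurement of binding.

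In the fit of all 8 libraries chemokine genes were lower or not called. Of 10 CXC chemokine genes 5 fell, and of 13 CC and CX3C genes 5 fell, with no member of either list rising. Without WT 3, KO 7 or KO 8 alone, 3 CXC genes fell. The CXC sum was 1621 to 1695 CPM in WT, and on average 1905 in KO 5 and 6 and 1298 in KO 7 and 8. With only KO 5 and 6, 1 CXC gene rose and 3 fell, and with only KO 7 and 8 6 fell. Of CC and CX3C genes 4 fell with only KO 5 and 6, and 1 rose and 5 fell with only KO 7 and 8. With pairs summed 1 CXC fall and 2 CC or CX3C falls were left. Ccl7, a monocyte attractant gene, stood at 28.02, 28.9, 25.8 and 24.1 CPM in WT and 16.4, 12.9, 10.2 and 10.7 CPM in KO (-1.08 ± 0.13). Ccl2 stood at 31.02, 32.5, 25.2 and 26.5 and 20.01, 17.9, 16.1 and 16.2 CPM (-0.71 ± 0.095), Ccl6 at 91.3 to 102 and 54.04 to 69.8 CPM (-0.65 ± 0.077), and the neutrophil attractant gene Cxcl2 at 3.44 to 4.25 and 1.24 to 2.18 CPM (-1.26 ± 0.17). Cxcl14, known from stroma and epithelium, stood at 235, 249, 217 and 189 CPM in WT and 148, 116, 73.2 and 75.4 CPM in KO (-1.105 ± 0.20). Of 22 cytokine and growth factor genes 7 fell and 2 rose. Pdgfb (42.1 to 49.1 to 28.8 to 29.97 CPM, -0.61 ± 0.053), Tgfb1 (244 to 265 to 179 to 217 CPM, -0.38 ± 0.067) and Ebi3, a subunit gene of interleukins 27 and 35 (8.52 to 10.03 to 3.31 to 6.02 CPM, -0.98 ± 0.15), fell, and Pdgfa rose (0.38 ± 0.068).

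Among 24 Toll-like receptor, co-receptor and adaptor genes 5 fell and 0 rose. That is 20.8%, against 24.1% of all tested genes called either way and 12.7% called lower. Tlr2, the receptor gene for bacterial lipoproteins, stood at 97.4, 88.8, 86.4 and 87.7 CPM in WT and 77.9, 72.8, 58.9 and 60.2 CPM in KO (-0.42 ± 0.087), and the adaptor kinase gene Irak4 (-0.37 ± 0.074) and Tlr3 (-0.34 ± 0.073) fell with it; no call of this list held with pairs summed, and 3 genes fell without WT 1 or KO 7. With only KO 7 and 8 10 fell and with only KO 5 and 6 3, where 2 rose. Of 21 inflammasome and interleukin-1 family genes 6 fell, among them Pycard, the gene of the ASC adaptor, at 47.3, 54.8, 52.8 and 47.5 CPM in WT and 36.8, 33.4, 28.8 and 28.1 CPM in KO (-0.67 ± 0.087), and Gsdmd, the gene of the pore-former gasdermin D (-0.27 ± 0.043). The count was 3 without WT 1, WT 4, KO 7 or KO 8, 10 with only KO 7 and 8, 3 with only KO 5 and 6 and 1 with pairs summed. Il1a rose at low level (0.531 to 1.07 to 0.919 to 1.77 CPM, not in both pairs). Of 11 genes of the necroptosis and RIPK kinase list 6 fell and 1 rose, all 6 falls in each KO pair alone. The falls were those of Ripk3 (49.3, 43.6, 45.2 and 44.4 to 36.6, 34.2, 37.4 and 37.2 CPM, -0.33 ± 0.054), the kinase that triggers necroptosis, Ripk2 (-0.29), Fadd (-0.36), Cflar (-0.32), Zbp1 (-0.60) and Tnfrsf1a (-0.25). The last 3 are named after their values were seen. Tnfrsf1b, the second TNF receptor gene, rose (257 to 262 to 300.4 to 342 CPM, 0.31 ± 0.051). With pairs summed 1 fall and no rise of the necroptosis and RIPK kinase list was left.

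Interferon-stimulated antiviral genes showed 12 falls and 0 rises among 35, of which 10 falls held in each KO pair alone and 2 with pairs summed, while 5 fell without WT 1 and 2. Bst2, the tetherin gene, stood at 187, 186, 203 and 161 CPM in WT and 136, 129, 135 and 146 CPM in KO (-0.43 ± 0.07). Oasl2 (34.8, 22.9, 24.1 and 29.2 to 19.1, 18.8, 12.96 and 14.01 CPM, -0.77 ± 0.15), Ifih1, the RNA sensor gene MDA5 (-0.46 ± 0.085), and Parp9 (-0.32 ± 0.064) followed. WT libraries differed here too, with list medians from -0.16 to 0.18 on the log2 scale around the WT mean. Among 20 interferon-inducible GTPase and PYHIN genes 3 fell (Gbp9, Igtp and Aim2); with only KO 7 and 8 it was 13, and with only KO 5 and 6 2.

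**Figure D4:**
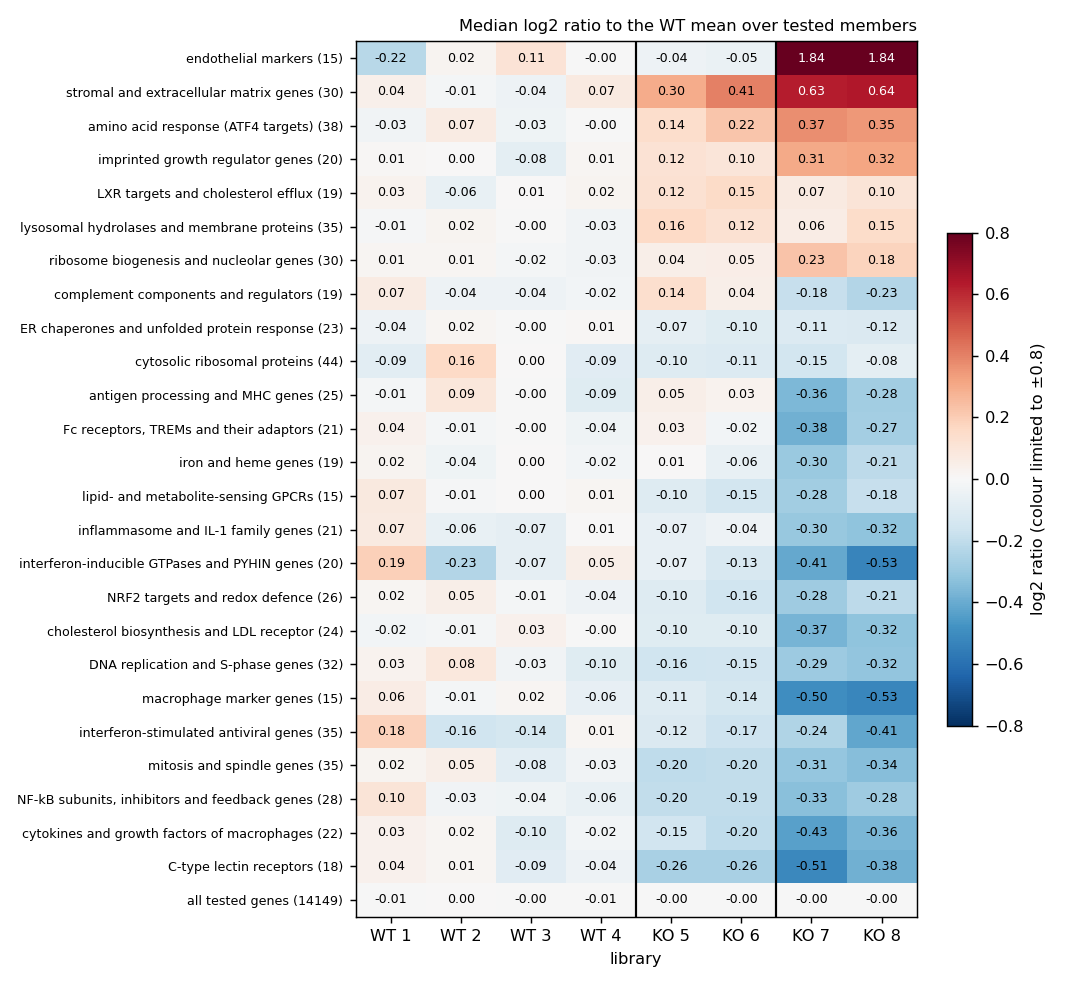
Median over tested members of the log2 ratio of CPM (plus 0.1) to the WT mean, by library, for the 25 lists with at least 15 tested members and a median log2 fold change of at least 0.1 in either direction, and for all tested genes. Endothelial markers stand at -0.038, -0.053, 1.84 and 1.84 in KO 5 to 8, mitosis genes at -0.20, -0.20, -0.31 and -0.34 and ATF4 targets at 0.14, 0.22, 0.37 and 0.35.

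Amino acid response genes had the largest share of members higher among the 51 lists drawn above. ATF4 is a transcription factor made when amino acids run short or other stresses phosphorylate eIF2alpha, and it induces amino acid synthesis, import and tRNA charging genes. Of 38 target genes 20 rose and 1 fell (median 0.29); 16 of the rises held in each KO pair alone, 7 with pairs summed, and 12 members rose without WT 3 and 4. Slc7a5, the leucine transporter gene, stood at 105, 104, 99.9 and 102 CPM in WT and 138, 152, 184 and 179.8 CPM in KO (0.67 ± 0.082, adjusted p = 0.000329). Trib3, a pseudokinase gene, stood at 22.4, 27.3, 23.6 and 23.4 and 34.3, 39.4, 43.8 and 44.1 CPM (0.74 ± 0.087), and Slc6a9, a glycine transporter gene, at 14.6, 15.7, 14.01 and 14.4 and 20.3, 24.3, 27.5 and 26.8 CPM (0.75 ± 0.09). Vldlr, a lipoprotein receptor gene, stood at 20.5, 19.9, 17.95 and 19.6 and 27.4, 30.9, 31.4 and 29.2 CPM (0.61 ± 0.062). KO 7 and 8 lay above KO 5 and 6 in Trib3 and Slc7a5, and all KO values of these 4 genes lay above all WT values. Gdf15, a stress-induced cytokine gene, was the member that fell (87.01 to 105 to 63.6 to 75.4 CPM, -0.47 ± 0.073). Atf4 itself (0.17 ± 0.06, adjusted p = 0.0607) and Ddit3, the CHOP gene (0.11 ± 0.065, adjusted p = 0.224), did not pass.

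Promoter windows of 3 called members are shown because they hold the C/EBP-ATF response element (CARE), spelled TGATGNAA, the element through which ATF4 acts on many of its targets. All lie on the plus strand: Vldlr at chr19:27216770-27217019, Chac1, a glutathione-degrading enzyme gene (0.77 ± 0.11), at chr2:119350992-119351241, and Gars, the glycyl-tRNA synthetase gene (0.37 ± 0.061), at chr6:55037751-55038000. Capitals mark the element, which reads as its reverse complement here.
Vldlr: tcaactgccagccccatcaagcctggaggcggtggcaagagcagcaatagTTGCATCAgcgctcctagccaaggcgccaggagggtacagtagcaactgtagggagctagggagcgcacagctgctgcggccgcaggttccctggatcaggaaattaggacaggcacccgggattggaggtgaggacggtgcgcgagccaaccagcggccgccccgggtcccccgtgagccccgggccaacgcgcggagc
Chac1: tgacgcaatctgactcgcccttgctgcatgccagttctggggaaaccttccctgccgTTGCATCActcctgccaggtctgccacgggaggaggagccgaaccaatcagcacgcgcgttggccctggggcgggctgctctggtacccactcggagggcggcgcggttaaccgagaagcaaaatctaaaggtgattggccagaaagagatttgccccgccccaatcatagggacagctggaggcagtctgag
Gars: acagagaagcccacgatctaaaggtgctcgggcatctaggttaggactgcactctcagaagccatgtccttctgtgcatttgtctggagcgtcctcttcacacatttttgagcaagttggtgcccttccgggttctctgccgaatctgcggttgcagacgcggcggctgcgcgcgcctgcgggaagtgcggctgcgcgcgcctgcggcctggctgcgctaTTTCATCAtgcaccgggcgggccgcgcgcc
The element was in 9 of the 32 list members with a window (28.1%), in 3.45% of all windows and in 2.07% of those of tested genes. Here too a member counted if any of its windows held the element, while the other shares count single windows. It was in 7 of 17 called members and in 2 of 15 not called.

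Transporters of amino acids and glucose changed in both directions (7 higher and 8 lower of 34, with Slc7a1 and Slc7a5 among the higher also in the ATF4 list). The counts were 2 and 1 with pairs summed, and 1 fell without WT 1 and 2. Slc38a1, a glutamine transporter gene, fell (56.9, 48.9, 51.8 and 50.99 CPM in WT, 32.6, 32.3, 29.6 and 30.1 CPM in KO, -0.74 ± 0.059), and Slc1a4 (0.57 ± 0.08) and the lactate transporter gene Slc16a1 (17.1 to 20.8 to 24.6 to 29.1 CPM, 0.58 ± 0.078) rose. Ribosome biogenesis genes rose in 10 of 30 cases and fell in 0, led by Gnl3, the nucleostemin gene (31.4 to 34.5 to 39.9 to 45.8 CPM, 0.37 ± 0.062), and Heatr1 (0.35 ± 0.058); 4 held in each KO pair alone, and 6 rose without WT 3 or KO 8. The other arm of the stress response, ER chaperone genes, had 6 falls and 1 rise among 23, with Manf (175 to 213 to 145 to 159 CPM, -0.33 ± 0.066) and Sdf2l1 (-0.39 ± 0.083) lower. Of 21 heat shock genes 4 rose and 3 fell, 1 of them in each KO pair alone. These counts turned with the KO pair, 4 rising and 0 falling with only KO 7 and 8 and 1 and 3 with only KO 5 and 6. With 1 library left out, 1 to 4 rose (1 or 2 when the library left out was WT 1, WT 2, WT 3, WT 4, KO 7 or KO 8) and 0 to 2 fell, and with pairs summed none was called.

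Cell division genes were lower, and small in size of change. Of 35 mitosis and spindle genes 31 fell and none rose (median -0.26), and of 32 DNA replication genes 19 fell and none rose (median -0.22). Ccnf, the cyclin F gene, stood at 35.4, 35.5, 36.03 and 34.1 CPM in WT and 25.4, 25.2, 21 and 20.5 CPM in KO (-0.61 ± 0.074, adjusted p = 0.000297). Aurkb, the Aurora B kinase gene, stood at 33.4, 35.1, 33.1 and 30.8 and 27.1, 26.3, 20.6 and 20.6 CPM (-0.48 ± 0.093), and Ube2c, a ubiquitin conjugase gene of mitotic exit, at 58.7, 70.4, 55.9 and 59.4 and 49.8, 46.9, 43.5 and 44.6 CPM (-0.40 ± 0.073). Of the replication genes, the helicase subunit gene Mcm5 (90.6, 94.7, 91.3 and 78.5 to 71.4, 72.6, 62.8 and 60.2 CPM, -0.41 ± 0.075), E2f1 (-0.40 ± 0.076) and the histone chaperone gene Chaf1b (-0.39 ± 0.057) were among those with the smallest adjusted p. With only KO 5 and 6, 11 mitosis and 10 replication genes fell, with only KO 7 and 8 32 and 20, and with pairs summed 1 and 0. Leaving out 1 library at a time left 21 to 31 mitosis genes lower, but without WT 1 and 2 it was 6 mitosis and 4 replication genes, and without WT 3 and 4 it was 18 mitosis genes.

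Promoters are shown for the mitosis genes with the smallest adjusted p that hold the cell cycle genes homology region (CHR), spelled TTTGAA, to which the DREAM and MuvB complexes bind in many such genes. Ccnf lies at chr17:24251410-24251659 (minus strand), Ube2c at chr2:164769679-164769928 and Kif11, a spindle motor gene (-0.27 ± 0.051), at chr19:37376132-37376381 (both plus strand). Capitals mark the motif, read 5′ to 3′ on the strand of the gene, where a match on the other strand reads TTCAAA.
Ccnf: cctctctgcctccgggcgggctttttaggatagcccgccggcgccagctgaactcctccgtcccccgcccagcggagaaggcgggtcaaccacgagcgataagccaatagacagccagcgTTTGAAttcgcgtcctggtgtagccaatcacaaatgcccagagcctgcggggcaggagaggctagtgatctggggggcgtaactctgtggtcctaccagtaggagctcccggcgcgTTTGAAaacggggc
Ube2c: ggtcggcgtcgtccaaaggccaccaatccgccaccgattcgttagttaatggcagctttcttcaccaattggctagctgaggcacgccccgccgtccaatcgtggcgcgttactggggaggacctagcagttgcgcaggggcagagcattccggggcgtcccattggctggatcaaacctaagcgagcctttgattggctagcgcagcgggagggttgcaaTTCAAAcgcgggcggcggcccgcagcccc
Kif11: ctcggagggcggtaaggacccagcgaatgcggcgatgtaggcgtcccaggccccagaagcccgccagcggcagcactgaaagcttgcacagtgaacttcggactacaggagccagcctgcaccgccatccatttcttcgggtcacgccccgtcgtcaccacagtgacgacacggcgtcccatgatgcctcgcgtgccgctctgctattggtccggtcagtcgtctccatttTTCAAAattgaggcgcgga
The motif was in 12 of the 29 list members with a window in any of their windows (41.4%), and in 16% of all single windows and 10.7% of those of tested genes. All 12 were among the 26 called members, and none of the 3 members not called held it.

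Lipid genes split by pathway. Liver X receptor (LXR) targets, which export cholesterol and remodel lipoproteins, rose in 6 of 19 cases, all in each KO pair alone, and fell in 2. Pltp, the phospholipid transfer protein gene, stood at 73.2, 69.5, 79.4 and 80.4 CPM in WT and 179, 181, 159 and 169.7 CPM in KO (1.19 ± 0.062, adjusted p = 1.01e-06). Abcg1, a sterol exporter gene, stood at 33.9, 32.6, 35.5 and 34.7 and 58.1, 65.1, 62.05 and 68.4 CPM (0.89 ± 0.058), and Smpdl3a, a phosphodiesterase gene, at 182, 177, 185 and 171 and 278, 256, 255 and 262 CPM (0.56 ± 0.048). All 3 held with pairs summed, while the exporter gene Abca1 was at -0.068 ± 0.081 (adjusted p = 0.579). Nr1h2, the LXR-beta gene, was lower (-0.24 ± 0.059).

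Cholesterol synthesis genes, which SREBP2 controls, fell in 12 of 24 cases and rose in none, and this rested mostly on KO 7 and 8: 18 fell with only that pair and 3 with only KO 5 and 6, where 1 rose. The endothelial and stromal sums and the first principal component set KO 7 and 8 apart in the same way, and their part in this was not tested. Msmo1 stood at 86.4, 96.2, 86.6 and 92.2 CPM in WT and 75.02, 73.6, 65.7 and 65.8 CPM in KO (-0.37 ± 0.06) and Insig1 at 107, 106, 106 and 109.6 and 92.5, 88.6, 67.2 and 68.5 CPM (-0.43 ± 0.096). No call of this list held with pairs summed, and without WT 3, WT 4, KO 7 or KO 8 alone 4 to 6 genes fell. Of 25 fatty acid and lipid droplet genes 5 rose and 3 fell, all of them in each KO pair alone, but 2 and 0 with pairs summed; 8 fell with only KO 7 and 8. Fabp3, a fatty acid-binding protein gene, rose from 6.09, 7.43, 6.38 and 6.57 CPM to 23.3, 20.2, 22.2 and 24.03 CPM (1.76 ± 0.081, adjusted p = 3.73e-07), with Fabp4 (38.5 to 45.4 to 61.1 to 71.8 CPM, 0.61 ± 0.069) and Fabp5 (0.44 ± 0.062) beside it. Pdk4, which encodes a kinase that shuts pyruvate dehydrogenase (69.4 to 75.5 to 42.2 to 54.3 CPM, -0.60 ± 0.086), and the lipase gene Lipe (-0.61 ± 0.11) fell.

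Lysosomal genes were more often higher: 15 of 35 rose and 6 fell (median 0.13), with 8 and 4 in each KO pair alone, 8 and 2 without WT 1 and 2, 6 and 2 without WT 3 and 4, and 2 and 0 with pairs summed. Gusb, the beta-glucuronidase gene, stood at 452, 455, 444 and 434 CPM in WT and 709, 682, 685 and 721 CPM in KO (0.65 ± 0.045, adjusted p = 8.46e-06). Ctsc, the cathepsin C gene, fell (505, 457, 474 and 477 to 393, 366, 300.4 and 301 CPM, -0.49 ± 0.086).

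Redox genes that NRF2 controls fell in 13 of 26 cases and rose in 1 (median -0.20), 9 of the falls in each KO pair alone and 7 without WT 1 and 2. Nfe2l2, the NRF2 gene itself, stood at 189, 197, 187 and 192 CPM in WT and 161, 154, 153 and 152 CPM in KO (-0.30 ± 0.043), and Gsr, the glutathione reductase gene, at 59.5, 59.01, 56.3 and 53.2 and 43.6, 43.7, 45.8 and 45.4 CPM (-0.35 ± 0.05). Taldo1, an enzyme gene of the pentose phosphate pathway, fell by -0.44 ± 0.075, and Gpx1, a glutathione peroxidase gene, rose (361 to 414 to 456 to 502 CPM, 0.33 ± 0.058). Iron and heme genes had 6 falls and 2 rises among 19, all in each KO pair alone; with pairs summed the 2 rises were left and 0 falls, and 10 fell with only KO 7 and 8. Hmox1, which degrades heme, stood at 391, 397, 387 and 363 CPM in WT and 319, 301, 248 and 259 CPM in KO (-0.45 ± 0.078), and the phagosomal metal transporter gene Slc11a1 at 240.4, 222, 227 and 209 and 169, 166, 128 and 138 CPM (-0.58 ± 0.087). The 2 that rose were the ferrireductase gene Steap3 (0.42 ± 0.051) and Mfsd7b, the heme exporter gene Flvcr1 (0.44 ± 0.051).

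Most core metabolism and housekeeping lists held a smaller share of calls than all genes (24.1%), with the TCA cycle list near that share and glycolysis above it. Among respiratory chain subunit genes 1 rose and 4 fell of 32, among TCA cycle genes 3 and 4 of 28, and among glycolysis and hypoxia genes 5 and 5 of 28. Proteasome subunit genes (2 and 1 of 30), cytosolic ribosomal protein genes (0 and 4 of 44), p53 targets (2 and 1 of 24) and insulin and mTOR genes (1 and 2 of 33) were mostly not called. With 1 library left out, ribosomal protein falls numbered 1 (without KO 7) to 5 and TCA cycle falls 2 (without WT 1) to 4. Single members are named next. Mdh1, the cytosolic malate dehydrogenase gene, went from 119, 137, 119 and 124 CPM to 87.7, 86.5, 83.2 and 82.3 CPM (-0.56 ± 0.055, adjusted p = 8.69e-05). Ndrg1, a hypoxia-induced gene, went from 24.9, 27.02, 24.1 and 26.5 CPM to 40.3, 42.6, 46.5 and 44.2 CPM (0.76 ± 0.059), and Adm, the adrenomedullin gene, from 36.3, 38.5, 42.6 and 37.9 CPM to 27.6, 26.9, 23.1 and 26.1 CPM (-0.58 ± 0.068), so 2 hypoxia-response genes changed in opposite directions. Irs1, the insulin receptor substrate gene, rose (45.2 to 52.4 to 66.2 to 91.5 CPM, 0.65 ± 0.093), Psmd8 rose (0.39 ± 0.058) and Ndufv1, a complex I subunit gene, fell (-0.33 ± 0.058). Of p53 targets, Gadd45a (0.67 ± 0.12) and Plk2 (0.51 ± 0.088) rose and Cdkn1a fell (-0.26 ± 0.063).

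Secreted proteins and their regulators changed in both directions. Of 25 coagulation, plasminogen and serpin genes 7 rose and 6 fell, among them the coagulation factor genes F7 (2.43 to 3.68 to 5.81 to 9.78 CPM, 1.33 ± 0.18) and F10 (3.19, 3.79, 3.11 and 2.99 to 6.58, 6.49, 7.59 and 9.36 CPM, 1.199 ± 0.13), upward, and Plau, the urokinase gene (142 to 151 to 109.7 to 120.5 CPM, -0.33 ± 0.046), downward. Among 21 matrix protease and inhibitor genes 4 rose and 3 fell: Mmp9, Mmp8 (-0.77 ± 0.13) and Mmp12, the macrophage elastase gene (-0.41 ± 0.091), were lower and Adamts1 (35.4 to 42.8 to 52.5 to 59.8 CPM, 0.52 ± 0.064), Timp2 (0.32 ± 0.059), Mmp19 (0.27) and Mmp2 (0.22) higher. Osteoclast and cell fusion genes had 4 falls and 2 rises among 15; beside Mmp9 and Acp5, the fusion genes Ocstamp (0.511 to 0.7601 to 0.0269 to 0.217 CPM) and Dcstamp (0.192 to 0.684 to 0.0779 to 0.228 CPM) fell at low level. Complement genes had 2 rises and 5 falls among 19 (2 falls without WT 1, WT 3, KO 7 or KO 8, and no rise without WT 2, WT 3, WT 4, KO 5 or KO 6). The direction turned with the KO pair: 7 rose and 2 fell with only KO 5 and 6, and 1 rose and 8 fell with only KO 7 and 8. With pairs summed 1 fall was left, and in the fit of all 8 libraries Cfp, the properdin gene, was lower (377, 360.4, 364 and 302 to 284, 264, 167 and 177 CPM, -0.65 ± 0.16).

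Receptors for small mediators followed. Of 15 lipid- and metabolite-sensing receptor genes 6 fell and 1 rose, with the acid sensor gene Gpr65 at 52.5, 53.2, 53.5 and 53.7 CPM in WT and 36.4, 34.1, 29.04 and 30.9 CPM in KO (-0.70 ± 0.066), Lpar6 at -0.57 ± 0.062 and the oxysterol receptor gene Gpr183 at -0.54 ± 0.11. Of 18 purinergic genes 2 rose and 3 fell (27.8% called, against 24.1% of all tested genes). P2ry1, an ADP receptor gene, rose from 3.32, 4.16, 4.19 and 3.09 CPM to 11.2, 10.9, 8.74 and 9.31 CPM (1.45 ± 0.12), and P2ry6, a UDP receptor gene, fell (179.8 to 184 to 116 to 154 CPM, -0.46 ± 0.086). Of 19 prostanoid and leukotriene genes 1 rose and 4 fell (26.3% called, also near the share of all tested genes). Alox5, the 5-lipoxygenase gene, was higher (3.15 to 4.08 to 5.93 to 6.8 CPM, 0.79 ± 0.11), and beside Ptgs1 the prostaglandin E2 receptor gene Ptger4 (-0.56 ± 0.085), Tbxas1 (-0.24) and Pla2g15 (-0.26) were lower. Of 15 arginine and polyamine genes 4 rose and 4 fell, the largest being Arg2, the mitochondrial arginase gene, at 0.773, 0.443, 0.413 and 0.524 CPM in WT and 1.68, 1.498, 2.62 and 2.81 CPM in KO (1.99 ± 0.27).

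Of 23 IL-4 receptor, SOCS and M2 marker genes 6 fell and 2 rose. Il4ra, the receptor gene itself, stood at 327, 301, 323 and 304 CPM in WT and 237, 217, 189 and 192 CPM in KO (-0.59 ± 0.072, adjusted p = 0.000338), and its partners Il2rg, above, and Jak3 (38.4 to 43.7 to 25.6 to 32.8 CPM, -0.50 ± 0.078) fell as well. Among 38 lineage transcription factor genes 10 fell and 5 rose (3 without WT 3 or KO 8). Fos, an immediate early gene, stood at 33.9, 32.2, 30.8 and 30.3 CPM in WT and 19.1, 17.7, 17.4 and 20.3 CPM in KO (-0.77 ± 0.063, adjusted p = 2.47e-05) and Junb at 165 to 201 and 132 to 142 CPM (-0.43 ± 0.061), with Irf1 lower (-0.47 ± 0.065) and Atf3 higher (115 to 126 to 142 to 158 CPM, 0.30 ± 0.051). Spi1, the PU.1 gene, was at -0.24 ± 0.088 (adjusted p = 0.0725).

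Costimulatory and checkpoint genes (4 higher and 5 lower of 21, 1 to 3 lower without WT 1, WT 2, WT 4, KO 7 or KO 8, 9 with only KO 7 and 8, 2 with only KO 5 and 6 and none called with pairs summed) included Cd274, the PD-L1 gene, at 21.04, 16.1, 18.6 and 17.9 CPM in WT and 23.7, 24.5, 27.4 and 28.7 CPM in KO (0.50 ± 0.088), and Slamf7 (12.7 to 21.9 to 24.6 to 39.98 CPM, 0.89 ± 0.19). Among 25 antigen processing genes 7 fell and 1 rose, 15 falling with only KO 7 and 8 and 3 with only KO 5 and 6. Tapbp, the tapasin gene, fell (269 to 297 to 210.3 to 244 CPM, -0.33 ± 0.058), and so did the transporter gene Tap2 (-0.26 ± 0.052) and the class Ib gene H2-T23 (-0.33 ± 0.069).

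Matrix genes were the 6 with the largest gain of CPM under the naming rule. Of the 30 stromal and extracellular matrix genes 20 rose and 2 fell (median 0.54), 15 and 1 of them in each KO pair alone and 6 and 1 with pairs summed; without WT 1 and 2, 12 rose. Col1a1, a type I collagen chain gene, stood at 6278, 6120.1, 5081 and 6174 CPM in WT and 7812, 8662, 10501 and 10106 CPM in KO (0.65 ± 0.098, adjusted p = 0.00112). Thbs1, the thrombospondin gene that macrophages also express, stood at 4647, 4432, 4737 and 5287 and 5981, 6401, 7124 and 6835 CPM (0.46 ± 0.071). Col1a2 (0.57 ± 0.09), Col3a1 (0.50 ± 0.094), Col5a1 (0.57 ± 0.087) and Sparc (0.36 ± 0.076) rose likewise, with KO 7 and 8 above KO 5 and 6 in all 6 of these genes. The type VI collagen gene Col6a2 rose from 503, 499, 529 and 551 CPM to 779, 884, 912 and 873 CPM (0.73 ± 0.06). Larger folds at lower level were those of Ibsp, the bone sialoprotein gene (19.7, 20.6, 7.62 and 10.7 CPM in WT and 58.5, 88.9, 72.7 and 51.3 CPM in KO, 2.22 ± 0.28), Col8a2 (0.932 to 3.59 to 8.66 to 11.5 CPM, 2.16 ± 0.29) and Fndc1 (1.05 to 2.12 to 6.83 to 8.899 CPM, 2.32 ± 0.18). Spp1 and Pdgfra, a receptor gene of mesenchymal cells (-0.23 ± 0.072), fell, and Pdgfrb rose (0.31 ± 0.087). Thus not all genes of the list moved one way.

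Endothelial markers depended on the KO pair. Of 15, 8 rose and 1 fell with all libraries, 13 rose with only KO 7 and 8 and 3 with only KO 5 and 6. Without any 1 of WT 1 to 4, KO 7 or KO 8, 4 or 5 rose. Egfl7, a secreted vascular factor gene, rose in both (3.32, 4.94, 4.32 and 4.17 CPM in WT, 14.2, 14.5, 17.3 and 21.1 CPM in KO 5 to 8, 2.002 ± 0.15), as did Vwf (9.56 to 11.4 to 21 to 25.6 CPM, 1.11 ± 0.086). Cdh5 and Tie1, a receptor gene of vascular endothelium, were at the WT level in KO 5 and 6 (0.035 and -0.0028 on the log2 scale) and above it in KO 7 and 8 (2.41 and 2.57). Eng, the endoglin gene, was the member that fell (-0.29).

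Imprinted growth regulator genes rose in 10 of 20 cases and fell in none, 4 in each KO pair alone and 1 with pairs summed; 6 rose without WT 1 and 5 without KO 8. Cdkn1c, which encodes the cell cycle inhibitor p57, stood at 11.2, 12.6, 10.1 and 8.33 CPM in WT and 21.96, 23.7, 28.9 and 35.3 CPM in KO (1.38 ± 0.16, adjusted p = 0.000201). Igf2 (9.21 to 12.5 to 14.4 to 21.7 CPM, 0.71 ± 0.15), Grb10 (141, 135, 133 and 148 to 159.7, 173, 237 and 226 CPM, 0.52 ± 0.11) and Mest rose beside it. The matrix gene Dcn is in both this list and the stromal one. BMP and TGF-beta response genes were split (6 higher and 5 lower of 32), with Id1, a direct BMP target gene, lower (17.7, 22.01, 13.5 and 12.8 to 11.2, 8.72, 6.52 and 7.15 CPM, -0.97 ± 0.19) and the procollagen protease gene Bmp1 higher (0.44 ± 0.085). Among markers of other cells, 2 of 10 tested neutrophil genes rose and 1 fell, 3 of 7 erythroid and megakaryocyte genes rose and 2 fell, and 1 each of the 4 tested genes rose and fell among B cell (Ebf1 and Cd79b) and among mast cell and basophil markers (Kit and Mcpt8). Of 4 tested T and NK genes 1 rose (Zap70, at most 1 CPM in each library), and of 5 dendritic cell genes 1 fell (Bst2).

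The resting difference was then set beside that after stimulation, each state fitted on its own 8 libraries. KO 5 and 6 and KO 7 and 8 deviated as pairs both at rest and after IL-4, so the KO libraries of these states are not independent. Of 1578 genes higher at rest and tested after IL-4, 1175 were also higher there, which is 74.5% of those and 42.6% of the 2759 genes higher after IL-4 (19.8% of genes tested). Of 1794 lower genes, 1258 were also lower after IL-4, which is 70.1% of those and 44.3% of the 2839 lower after IL-4 (20.4% of genes tested). After LPS, where 3 of the 8 libraries held few reads, 538 of 1521 higher genes (35.4%, and 31.7% of the 1698 higher after LPS, 12.6% of genes tested) and 733 of 1792 lower genes (40.9%, and 45.6% of the 1608 lower after LPS, 11.9% of genes tested) were called the same way. Opposite calls were 17 and 10 after IL-4 and 18 and 70 after LPS. The test of the difference itself, the genotype by stimulus interaction, called 300 genes for IL-4 (2.07%) and 1436 for LPS (9.97%). Both counts take the libraries of the 2 states as independent, which the KO libraries at rest and after IL-4 are not. With a term for each library number (the replicate block) the counts were 1630 for IL-4 and 1842 for LPS. Without that term they depended on the tool and on single libraries. DESeq2 called 846 and 558. With 1 library left out, the IL-4 count ran from 110 (without WT M0 3) to 668 (without WT M0 2), and that of LPS from 660 (without WT LPS 3) to 2168 (without KO LPS 8).

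**Figure D5:**
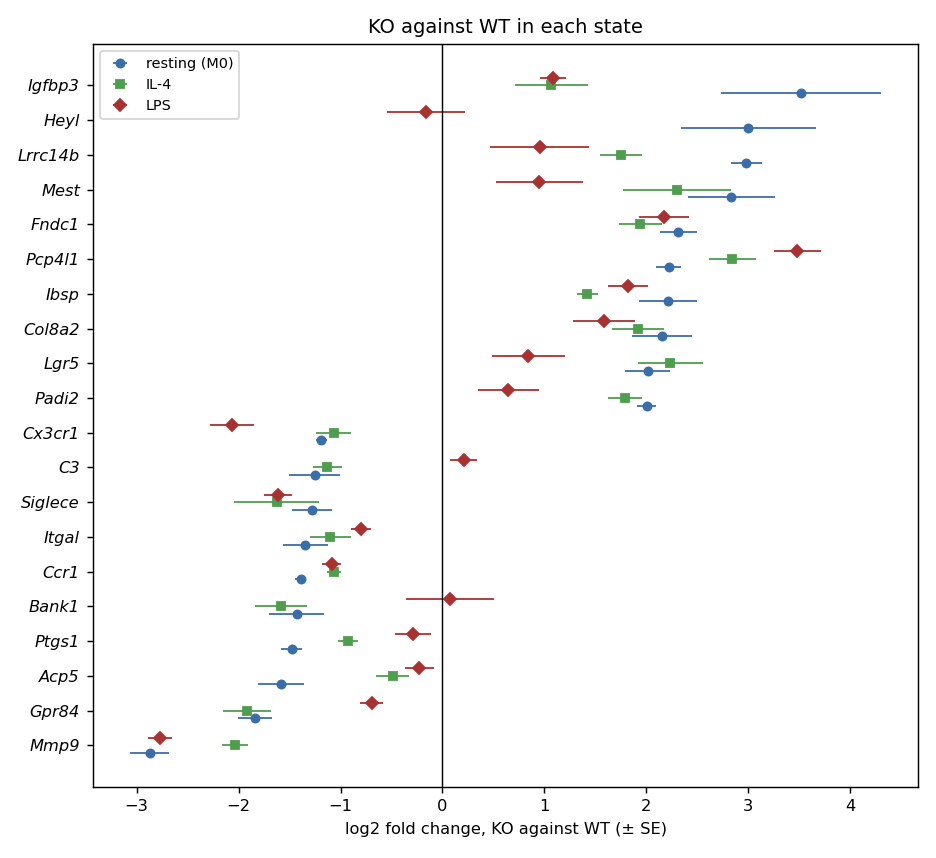
Log2 fold change of KO against WT (± standard error, n = 4 against 4 libraries in each state) for the 10 genes with the largest rise and the 10 with the largest fall at rest; circles are resting cells, squares IL-4 and diamonds LPS. Mmp9, Siglece, Ccr1, Fndc1 and Ibsp lie on the same side of 0 in all 3 states, while C3, Bank1 and Heyl lie near 0 after LPS.

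Mmp9 fell in all 3 states (-2.03 ± 0.13 after IL-4 and -2.77 ± 0.12 after LPS), as did Ccr1 (-1.07 ± 0.069 and -1.09 ± 0.095). Gpr84 fell by -0.69 ± 0.11 after LPS against -1.84 ± 0.17 at rest, and this difference passed (interaction 1.14 ± 0.21, adjusted p = 0.00195). Ptgs1 was at -0.29 ± 0.18 after LPS (interaction 1.17 ± 0.18, 0.000327), C3 at 0.21 ± 0.13 (interaction 1.46 ± 0.30, 0.00424) and Acp5 at -0.23 ± 0.14 (interaction 1.36 ± 0.30, 0.00597). For these 4 genes the difference between genotypes was smaller after LPS than at rest or did not pass there. They were picked for large falls at rest, and the interaction reuses those resting libraries. Such a choice by itself favours a smaller difference in another state. Cx3cr1 fell more after LPS (-2.07 ± 0.22, interaction -0.87 ± 0.25, 0.0315), and Pcp4l1 rose more (3.48 ± 0.23, interaction 1.27 ± 0.26, 0.00422). Lrrc14b rose less after IL-4 (1.75 ± 0.21) and did not pass after LPS (0.95 ± 0.48), and Lyz2 fell less after IL-4 (-0.45 ± 0.072, interaction 0.44 ± 0.11, 0.0421). In the shallow libraries WT LPS 1, WT LPS 2 and KO LPS 7 a count of 0 allowed up to 14.3 to 17.4 CPM. This lies above all resting Lrrc14b values, so these libraries say little on so low a gene. Ogt itself was at -0.70 ± 0.057 after IL-4 and -0.66 ± 0.093 after LPS, and neither interaction passed (adjusted p = 0.174 and 0.361).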

How the data were processed

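The submitters' processing notes name TopHat2 2.1.0 as aligner, mm10 (GRCm38) as genome build and HTSeq 0.9.1 for counting. Read totals per resting library were 63429271 to 90900801. The deposited values are raw counts per gene symbol, not normalised, for 24421 symbols and 5 summary lines per library. The summary lines (8.91% to 9.36% of each resting library's total) were left out of all sums and tests. For the gene annotation, library kit and strand setting: not given in the sources used here. Reads of overlapping or antisense genes and of close copies therefore cannot be told apart.

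The 8 resting libraries were fitted alone, with genotype as the single term, in R 4.3.3 with edgeR 4.0.16: filterByExpr filter by genotype (14149 genes kept), TMM scaling and the quasi-likelihood test with 6 residual degrees of freedom. A call means an adjusted p (Benjamini-Hochberg, all tested genes) under 0.05. CPM are counts per 1000000 of TMM-scaled library size, standard errors are the log2 fold change over the root of the F statistic, and a list's level by library used a pseudocount of 0.1 CPM. Interactions were fitted on the 16 libraries of 2 states.

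The members and the 62 lists (1363 genes, 1346 found in the files, 1248 tested) were chosen with earlier results of these data known, so no list is independent evidence of its direction. None of the 13 mitochondrially encoded genes was found among the deposited gene symbols, so these genes could not be analysed. Lists share members. Named genes were Ogt, Mgea5 and Lyz2. To these were added, in each direction, the 10 with the largest fold and the 6 with the largest CPM difference among called genes with at least 5 CPM, no overlap and a call in both KO pairs alone (639 higher and 859 lower genes met this). Up to 4 called members per list, all members called in a direction where these were at most 5, marker genes and 5 tested neighbours on each side of Ogt and Lyz2 completed the rule. Atf4, Ddit3, Abca1, Spi1, Zbp1, Cflar and Tnfrsf1a were added after their values were seen. Some genes that the rule names are not reported here.

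Gene positions and promoter windows (250 bases before each start) come from RefSeq, GRCm38.p6; 23204 symbols matched directly and 24300 with synonyms. The fits were first tested on simulated counts with 200 changed genes, drawn as independent libraries without KO pairs. At rest 71.6% of 1.5-fold and 86.6% of 2-fold changes were called, and 2.82% of calls were false. For the IL-4 and LPS interactions 7.83% and 7.28% of calls were false, and 65.7% and 44.8% of 1.5-fold changes were called. Alternatives were RLE and upper quartile scaling, no filter, DESeq2 1.42.0, all 24 libraries in 1 fit, each library or pair left out, number pairs summed, and the replicate block.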

Additional observations from a re-analysis of the deposited data

Results flagged for a closer look

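In 34 genes named by rank or by rule, the highest and lowest of the 4 values of each genotype were compared with the others, 68 groups in all, and 3 groups held a value that stood apart; chance gives about 1 in 20 groups. Col1a1 stood at 5080.7 CPM in WT library 3, below the other WT libraries, Fcrls at 1182 CPM in the same library, above the others, and Ccr1 at 30.9 CPM in KO library 5, above the other KO libraries. Without the library concerned the genotype difference was still called (edgeR adjusted p = 0.00473 for Col1a1, 8.37e-05 for Fcrls and 6.27e-07 for Ccr1).

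For 11 of these genes the genotype difference itself changed with a stimulus (edgeR quasi-likelihood interaction, Benjamini-Hochberg adjusted p in parentheses, given as the KO against WT difference after the stimulus minus that at rest, log2). After LPS the difference moved up for C3 by 1.46 (0.00424), Acp5 by 1.36 (0.00597), Pcp4l1 by 1.27 (0.00422), Ptgs1 by 1.17 (0.000327), Gpr84 by 1.14 (0.00195) and Fcrls by 0.442 (0.00763). It moved down for Heyl (-3.16, 0.026), Lrrc14b (-2.03, 0.0174), Padi2 (-1.34, 0.00176) and Cx3cr1 (-0.875, 0.0315). After IL-4 it moved down for Lrrc14b (-1.22, 0.0177) and up for Lyz2 (0.438, 0.0421). Most of these genes were picked for large changes at rest, and the interaction reuses the resting libraries. Such a choice by itself favours smaller differences in another state. Of the 8 LPS libraries 3 (WT 1, WT 2 and KO 7) held 172771 to 209368 counts. A count of 0 there allowed up to 14.3 to 17.4 CPM, above all resting values of Lrrc14b and Heyl. LPS values of such low genes rest mainly on the other libraries.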

How the results depend on the processing

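At rest, 1612 genes were higher and 1803 lower. The counts were 681 and 839 without WT 1 and 2, 634 and 741 without WT 3 and 4, and 253 and 267 with number pairs summed. Leaving out 1 library at a time gave 1083 to 1626 higher and 1299 to 1866 lower. The counts stayed within 1.5 times under RLE, upper quartile scaling, no filter, DESeq2 (1982 and 2051), all 24 libraries and with either KO pair left out (2110 and 2337 without KO 5 and 6, 1221 and 1227 without KO 7 and 8). Of the genes called, 244 higher and 255 lower were called the same way in all 19 settings. Genes without overlap numbered 7310 without KO 5 and 6, 6046 without KO 7 and 8 and 8844 with pairs summed, against 3951, since fewer values per group overlap less often.

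The IL-4 interaction called 300 genes, 846 with DESeq2 and 110 to 668 with 1 library left out (WT M0 replicates 3 and 2); the LPS interaction called 1436, 558 with DESeq2, 1577 without the 3 shallow LPS libraries and 660 to 2168 with 1 library left out (WT LPS replicate 3 and KO LPS replicate 8). The cause was not tested. Without KO 7 and 8, Tie1 (-0.0028) and Csf1r (0.00085) changed sign, as did Mertk without WT 2 (-0.047; up to 0.11 with another single library left out, WT 1) or without KO 5 and 6 (-0.045) and Abca1 without WT 3 and 4 (0.030); only Tie1 of these was called with all libraries.

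No paired analysis was possible because numbers 1 to 4 are all WT and 5 to 8 all KO within the resting state. Across states, same-numbered libraries did not all deviate together: the correlation of deviations was 0.0101 to 0.406 between M0 and IL-4 (over 0.1 in 5 of 8) and -0.0175 to 0.151 between M0 and LPS (1 of 8), and 5 of 8 and 3 of 8 libraries correlated best with their own number. Between M0 and IL-4 the KO pairs recurred. Correlations were 0.312 to 0.406 within KO 5 and 6 or within KO 7 and 8, and -0.415 to -0.305 across these pairs. Same-numbered WT libraries were at 0.0101 to 0.170. With the replicate block, the IL-4 interaction called 1630 genes and the LPS interaction 1842.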

Other observations

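On mean CPM, 455 tested genes stood at least 2-fold apart between KO libraries 5 and 6 and KO libraries 7 and 8, and 202 between WT libraries 1 and 2 and WT libraries 3 and 4. The labels used here do not say what the numbers mark.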
